A study of Rattus norvegicus with 13 samples.

Results

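The hexose transporters described here are 6 members of the facilitative Slc2a family: Slc2a1, Slc2a2, Slc2a3, Slc2a4, Slc2a5 and Slc2a8. They were chosen by name, and each was measured by 1 probe set, a group of short array probes combined to 1 value, among 15310 probe sets with a single gene that covered 14506 genes. The tissue was whole brain without cerebellum of 15 month old male offspring of inbred Fischer F344 rats, measured on Affymetrix arrays. In the maternal control group (7 arrays) the mothers ate a control diet, and in the maternal fructose group (6 arrays) a diet high in fructose, in both cases from gestation day 1 and through lactation. All offspring were weaned on day 20 onto chow and ate it until they were killed, so their mothers' diet is the only labelled difference between the groups. The labels do not give the litter of a sample or say that each sample is a separate animal, so the spread that p-values rest on may be technical.

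Facilitative transporters move hexoses across membranes down their gradient, without using energy. The product of Slc2a1 carries glucose across the endothelium of the blood-brain barrier and into glia, and that of Slc2a3 carries it into neurons with high affinity. Slc2a2 encodes a low-affinity carrier of liver, intestine and pancreatic beta cells that also takes fructose, Slc2a4 the insulin-responsive carrier of muscle and fat, Slc2a5 a carrier dedicated to fructose, known in brain from microglia, and Slc2a8 a carrier that stays largely on internal membranes and was described in testis and neurons.

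Array medians over the 15633 probe sets with at least 1 gene lay between 7.99 and 8.07 on the log2 scale. The interquartile range, the width of the middle part of each array's distribution, was smallest in control replicates 1 (2.19) and 2 (2.15), and 2.26 to 2.50 in the other arrays. The tissue label was checked on marker genes: the 20 neuron markers had a median signal of 11.46, against 8.04 over all probe sets. They ran from Slc17a6 at 6.92 to Snap25 at 13.35, with Rbfox3 at 11.13. Whether cerebellum was absent was not checked. Bulk signals cannot tell fewer cells of a type from less RNA per cell.

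The transporters fell into a bright and a dim set. Slc2a1 had a mean signal of 10.78 ± 0.13 (SD, n = 13) on the log2 scale, at percentile 94.4 of the probe sets with a gene. Slc2a3 stood at 9.80 ± 0.15 (percentile 85.0) and Slc2a8 at 9.13 ± 0.06 (percentile 73.6). Below the array median lay the fructose carrier Slc2a5 at 7.41 ± 0.12 (percentile 36.3), Slc2a4 at 6.80 ± 0.12 (percentile 23.9) and Slc2a2 at 6.38 ± 0.08 (percentile 16.9). Probes differ in how well they bind, so this is an order of signals and not of transcript amounts.

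The same order of signals was found in every array. The brighter member of each neighbouring pair was the higher in 13 of 13 arrays, and their ranges did not overlap in any of the 5 pairs. The widest step, between Slc2a8 and Slc2a5, was 1.73 ± 0.10 (SD of the difference within an array, n = 13) on the log2 scale. Since fixed differences between probes also give a steady order, no order of levels is read from it, least of all among the 3 dim members.

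How far the dim members stood above background is unknown, since the table held no detection p-values. A yardstick was a list of 28 genes typical of other organs, such as liver, pancreas, testis and skeletal muscle, of which 26 were measured. Their mean signals ran from 4.98 to 8.67, with a median of 6.78. Slc2a1, Slc2a3 and Slc2a8 were brighter than all 26 of them. Slc2a5 was brighter than 17, Slc2a4 than 13 and Slc2a2 than 8, so these 3 signals lay within the range of genes typical of other organs.

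**Figure D1:**
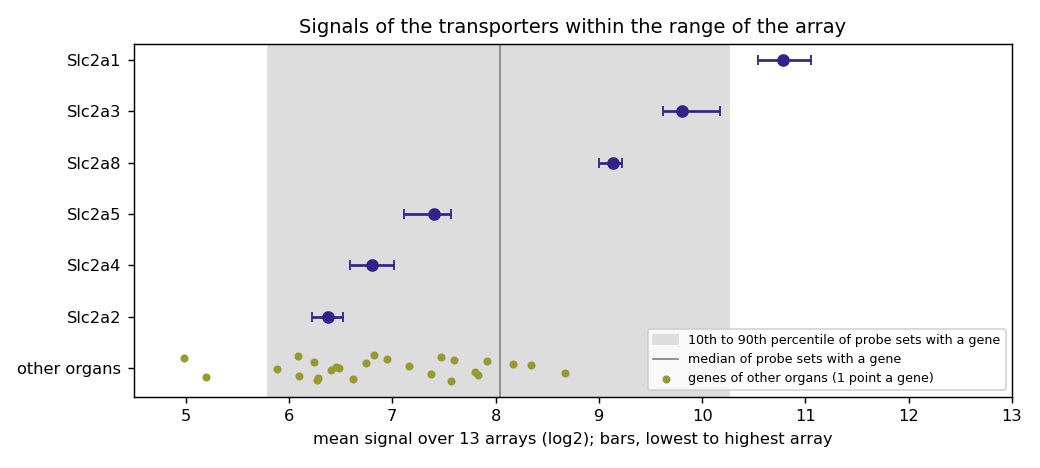
Mean signal (log2, over 13 arrays) of each transporter, with bars from the lowest to the highest array, beside the mean signals of 26 genes typical of other organs (1 point a gene). Slc2a1, Slc2a3 and Slc2a8 lie above every point of the other organs, and Slc2a5, Slc2a4 and Slc2a2 among them; the grey band spans the 10th to the 90th percentile of all probe sets with a gene and the line marks their median of 8.04.

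The promoters of the brightest and the dimmest member are shown because they differ in base composition. Windows for 4 of the 6 members (Slc2a1, Slc2a2, Slc2a5 and Slc2a8) were matched in the RefSeq promoter table of build GRCr8, and 250 bases before each annotated start were read. Capitals mark the GC box letters GGGCGG on either strand. TATAAA and CACGTG were also searched on either strand, and no searched motif overlapped another in these windows.
Slc2a1, chr5:138002272-138002521, plus strand: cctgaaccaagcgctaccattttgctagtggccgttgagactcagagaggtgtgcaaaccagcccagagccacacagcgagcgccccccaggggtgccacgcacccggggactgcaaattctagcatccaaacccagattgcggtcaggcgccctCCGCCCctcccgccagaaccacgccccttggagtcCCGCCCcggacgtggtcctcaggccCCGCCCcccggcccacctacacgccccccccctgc
Slc2a2, chr2:113540120-113540369, plus strand: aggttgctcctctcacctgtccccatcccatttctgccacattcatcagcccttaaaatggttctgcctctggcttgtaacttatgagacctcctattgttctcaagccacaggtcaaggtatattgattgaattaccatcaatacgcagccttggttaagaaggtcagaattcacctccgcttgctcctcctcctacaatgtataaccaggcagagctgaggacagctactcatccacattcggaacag
The Slc2a1 window had 68.4% G and C, 17 CpG dinucleotides and 3 GC boxes, and the Slc2a2 window had 47.2%, 3 CpG and 0 GC boxes. Those of Slc2a5 (50.8%, 8 CpG) and Slc2a8 (57.2%, 14 CpG) also had 0 GC boxes. Over all promoter windows of this length the median was 51.2% G and C and 5 CpG. By G and C content the Slc2a1 window was at percentile 89.7 of them and the Slc2a2 window at percentile 34.7. A GC box was found in 30.5% of 33469 promoter windows of this length, TATAAA in 12.9% and CACGTG in 5.59%, and these last 2 were in none of the 4 windows. A match or its absence describes only these letters.

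The comparison of the maternal diets asks whether transporter signals in the old brain differed by what the mother had eaten before weaning. None of the 6 transporters passed the test. In the limma fit over all 15633 probe sets, 0 of 6 had an adjusted p under 0.05 (Benjamini-Hochberg), where 0% of all probe sets did, and 0 of 6 had an unadjusted p under 0.05, where 2.23% of all did. The difference, fructose minus control, was above 0 for 4 of the 6, against 54.1% of all probe sets, and its median over the 6 was 0.0041 on the log2 scale, against 0.0056 over all. The groups overlapped for each member, and over all probe sets 0.0384% had groups that did not overlap. The smallest adjusted p from limma over all probe sets was 0.9998, which is also that of each transporter.

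**Figure D2:**
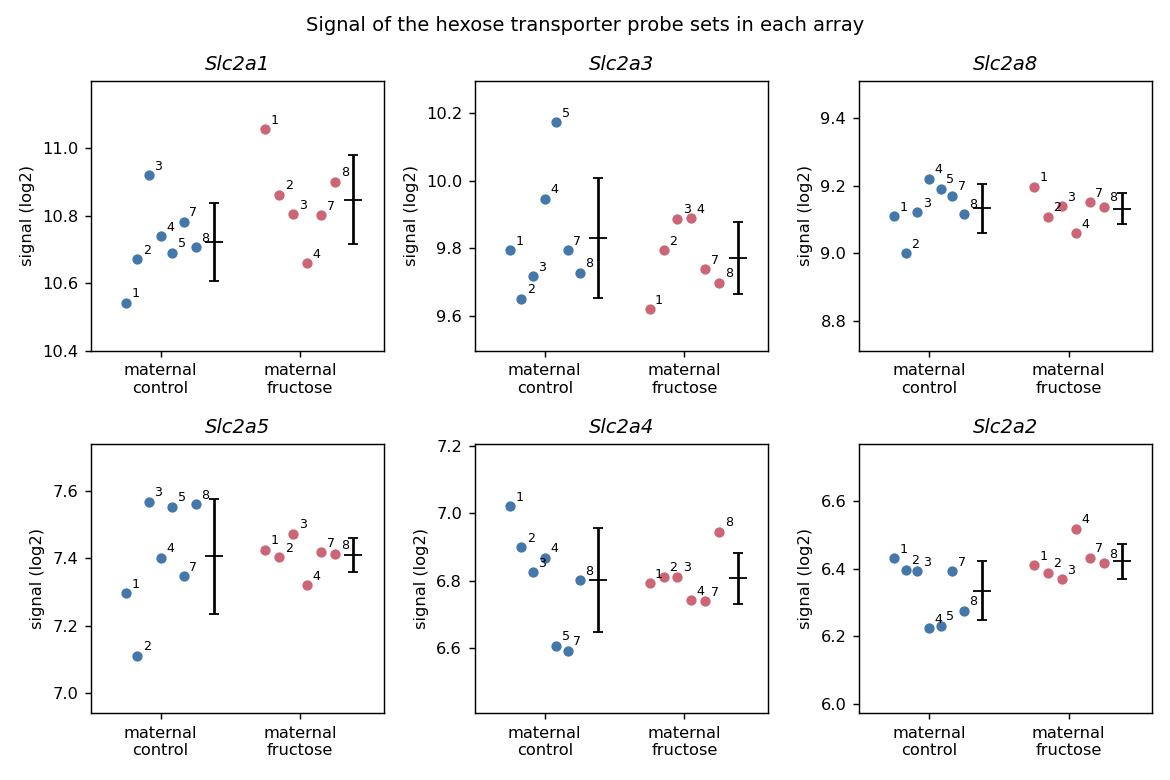
Signal (log2) of each transporter in each array by maternal diet, 7 control and 6 fructose arrays, with the replicate number beside each point and the mean ± SD in black; every panel spans 0.8 on the log2 scale. The groups overlap in all 6 panels, and Slc2a5 is more scattered in control arrays (SD 0.17) than in fructose arrays (SD 0.05), a difference in spread that was not tested.

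Slc2a1, the barrier and glial glucose carrier, had the largest difference of the 6. Its signal ran from 10.54 over a median of 10.71 to 10.92 in control arrays and from 10.66 over a median of 10.83 to 11.06 in fructose arrays. Control replicate 1 was the lowest array and fructose replicate 1 the highest, and 5 of the 6 fructose arrays lay within the control range. The difference was 0.13 ± 0.07 (SE, limma), a ratio of 1.09 with a 95% interval from 0.99 to 1.20. It had an unadjusted p of 0.0757 in limma and of 0.0944 in an exact 2-sided permutation test over the 1716 ways to divide the arrays, and 5.52% of all probe sets differed by more in either direction. Over the 21 alternatives it ran from 0.080 without the narrow pair, control replicates 1 and 2, to 0.16 without fructose replicate 4, and the unadjusted limma p from 0.0231 to 0.252. That p was under 0.05 in 2 of them, without control replicate 3 or without fructose replicate 4, and no adjusted p passed.

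Slc2a3, the neuronal glucose carrier, ran from 9.65 over a median of 9.80 to 10.17 in control arrays and from 9.62 over a median of 9.77 to 9.89 in fructose arrays. Control replicate 5 held the highest value and stood apart from the next control array, replicate 4 at 9.95. The difference was -0.06 ± 0.08 (SE), a ratio of 0.96 with a 95% interval from 0.86 to 1.08. Without control replicate 5 it was -0.00065, without fructose replicate 1 -0.028, without control replicate 4 -0.038, without control replicate 2 -0.088, without the narrow pair -0.10 and with array weights -0.097.

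Slc2a8, the carrier of internal membranes, was the steadiest of the 6. It ran from 9.001 over a median of 9.12 to 9.22 in control arrays and from 9.06 over a median of 9.14 to 9.20 in fructose arrays, which all lay inside the control range. The whole range was 1.17-fold. Its SD within groups, 0.062, was at percentile 7.06 of all probe sets. The control mean was 9.13 ± 0.07 (SD, n = 7) and the fructose mean 9.13 ± 0.05 (SD, n = 6), and the 95% interval of the ratio went from 0.94 to 1.06.

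Slc2a5 takes up the sugar the mothers had been fed. It ran from 7.11 over a median of 7.40 to 7.57 in control arrays and from 7.32 over a median of 7.42 to 7.47 in fructose arrays. All 6 fructose arrays lay inside the control range, and control replicate 2 was the lowest array. The 95% interval of the ratio, 0.90 to 1.11, leaves room for a difference of about that size in either direction. Without control replicates 1 and 2 the difference of 0.0031 became -0.077, with an unadjusted p of 0.149 in limma.

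Slc2a2, the low-affinity carrier of glucose and fructose, ran from 6.22 over a median of 6.39 to 6.43 in control arrays and from 6.37 over a median of 6.41 to 6.52 in fructose arrays. The 3 lowest values were those of control replicates 4, 5 and 8, and all 6 fructose arrays lay above the control mean, with 4 of them inside the control range. The difference was 0.09 ± 0.05 (SE), a ratio of 1.06 with a 95% interval from 0.99 to 1.14. It had an unadjusted p of 0.0787 in limma and of 0.0781 in the exact permutation test. Over the alternatives the unadjusted limma p went from 0.0228 (without the narrow pair) to 0.249 (with the replicate number as a block), and no adjusted p passed.

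Slc2a4, the insulin-responsive carrier, ran from 6.59 over a median of 6.83 to 7.02 in control arrays and from 6.74 over a median of 6.80 to 6.95 in fructose arrays. Its highest value was that of control replicate 1 and its lowest that of control replicate 7. The difference was 0.0051, with a 95% interval of the ratio from 0.91 to 1.11, and it was 0.068 without control replicates 1 and 2. The signs of the differences of Slc2a4, Slc2a5 and Slc2a8 each turned in at least 1 other fit.

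**Figure D3:**
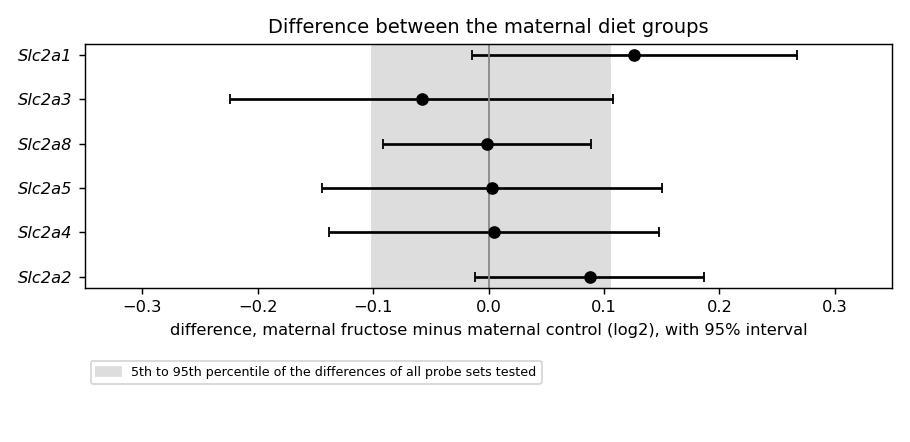
Difference in signal, maternal fructose minus maternal control (log2), of each transporter with its 95% interval from limma (7 control and 6 fructose arrays); the grey band spans the 5th to the 95th percentile of the differences of all 15633 probe sets, -0.10 to 0.11. All 6 intervals include 0, and Slc2a1, at 0.13, lies outside the band.

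Genes that work beside these transporters were read from the same fit in 4 lists, and 0 of their 33 measured genes passed, adjusted or at an unadjusted p under 0.05. Over all probe sets 0% passed adjusted and 2.23% had an unadjusted p under 0.05 in limma. The difference was above 0 for 54.1% of all probe sets, with a median of 0.0056. The lists were not tested as sets. Of 6 other facilitative transporters 4 were measured, 2 higher and 2 lower in the fructose group, with a median difference of -0.0056. Slc2a6, a carrier placed on lysosomes, had a control mean of 8.41 ± 0.08 (SD, n = 7) and a fructose mean of 8.29 ± 0.11 (SD, n = 6). Only 1 of its 6 fructose arrays lay above the control mean, and at -0.11 ± 0.05 (SE) it had the smallest unadjusted p of the 33, 0.0520 in limma. Its unadjusted p was under 0.05 in 11 of the 21 alternatives, from 0.0142 without fructose replicate 3 to 0.125 without fructose replicate 4, and no adjusted p passed. Slc2a12 differed by 0.15 ± 0.16 (SE), with a control range from 7.13 to 8.15. It was 0.023 without the narrow pair and 0.061 to 0.23 with 1 array left out (control replicate 2 and control replicate 8).

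Of 11 sodium or proton coupled sugar transporters and Slc50a1, 9 were measured, 6 higher and 3 lower, with a median of 0.012. Slc5a2, the sodium-glucose cotransporter known from kidney, differed by -0.10 ± 0.06 (SE), with 0 of 6 fructose arrays above the control mean, and by -0.023 without the narrow pair. Slc45a1, a proton-associated sugar transporter of brain, differed by 0.04 ± 0.04 (SE), and by 0.011 without that pair.

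Of 16 genes of transporter trafficking and turnover 14 were measured, 10 higher and 4 lower, with a median of 0.041. Over all probe sets 54.1% were higher, with a median of 0.0056. Vamp2, a vesicle fusion protein, had values from 11.27 to 11.56 in control and from 11.42 to 11.62 in fructose arrays, and differed by 0.10 ± 0.05 (SE). The value was 0.066 after quantile normalization. Gipc1, an adaptor that binds the tail of the Slc2a1 protein, was at 8.87 ± 0.07 (SD, n = 7) and 8.94 ± 0.11 (SD, n = 6). It differed by 0.07 ± 0.05 (SE), by 0.044 without the narrow pair, 0.047 without control replicate 2 alone and 0.044 without fructose replicate 3. Of 8 genes of hexose phosphorylation 6 were measured, 2 higher and 4 lower, with a median of -0.039. Hk2, a hexokinase that traps glucose in the cell, ran from 7.06 to 7.42 in control and from 7.12 to 7.27 in fructose arrays. Khk, which phosphorylates fructose, ran from 7.31 to 7.65 and from 7.33 to 7.50. Without the narrow pair the difference of Hk2 went from -0.07 to -0.12 and that of Khk from -0.07 to -0.012. The unadjusted limma p of Hk2 was then 0.0232, and it was under 0.05 in 3 of the 21 alternatives, as was that of Vamp2 in 2.

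Whether a transporter followed the markers of a cell type from array to array was read against the mean of each of 9 marker lists, with the transporters themselves left out. The array's interquartile range was added as a technical measure, which made 60 relations. Each was tested by a 2-sided permutation test with 100000 resamples and adjusted over the 60. Of the 54 relations to marker lists 0 passed an adjusted p of 0.05 with Pearson's r, 7 had an unadjusted p under 0.05, and with Spearman's rho the smallest adjusted p of all 60 was 0.115.

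**Figure D4:**
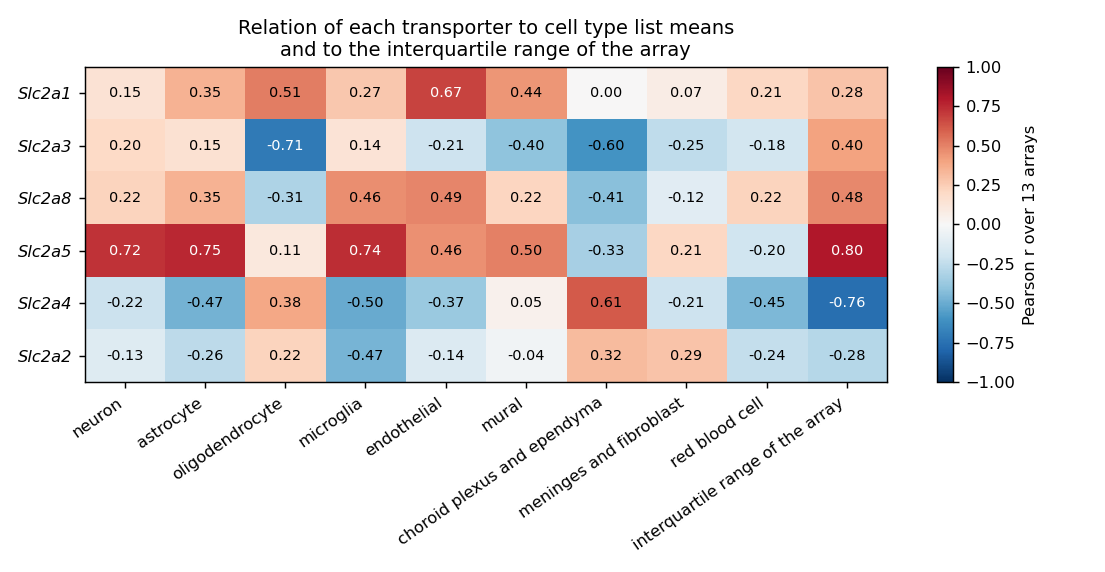
Pearson r over 13 arrays between the signal of each transporter (rows) and the mean of each cell type list or the interquartile range of the array (columns), from -1 in blue to 1 in red. Slc2a1 has its highest r with endothelial markers (0.67), Slc2a3 its lowest with oligodendrocyte markers (-0.71), and Slc2a5 and Slc2a4 have their strongest with the interquartile range (0.80 and -0.76).

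Slc2a1 had its strongest relation to the 20 endothelial markers, with r = 0.67 (permutation p = 0.0111, adjusted p = 0.0956) and rho = 0.66 (permutation p = 0.0168, adjusted p = 0.253). A larger r with this list was found for 2.65% of the other probe sets. It was 0.77 within the control group (exact permutation p = 0.0325) and 0.54 within the fructose group (exact permutation p = 0.282). Without the 2 arrays farthest from the median of the list it was 0.68, and without control replicates 1 and 2 it was 0.44 (permutation p = 0.174). The endothelial list itself had r = 0.57 with the interquartile range, whose part in the relation was not tested. The next strongest relation of Slc2a1 was to the oligodendrocyte markers, at r = 0.51 (permutation p = 0.0752, adjusted p = 0.386) and rho = 0.47. That r was 0.33 within the control and 0.81 within the fructose group, 0.68 without the narrow pair (permutation p = 0.0214) and 0.079 without its 2 farthest arrays, control replicate 3 and fructose replicate 1, so it rests on them. For mural cell markers r was 0.44 and for astrocyte markers 0.35.

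Slc2a3 had r = 0.20 with neuron markers, the cells it is known from. Its strongest relation was an inverse one, to the 14 measured oligodendrocyte markers, with r = -0.71 (permutation p = 0.00393, adjusted p = 0.0598) and rho = -0.79 (permutation p = 0.00191, adjusted p = 0.115). Only 0.352% of the other probe sets had a smaller r with that list. The relation was -0.78 within the control group (exact permutation p = 0.0194), -0.53 within the fructose group (exact permutation p = 0.293), -0.64 without the 2 farthest arrays and -0.69 without the narrow pair. Slc2a3 was highest in control replicates 5 and 4, where the oligodendrocyte mean was lowest, and lowest in fructose replicate 1, where that mean was highest. An inverse relation was also found to choroid plexus and ependyma markers, at r = -0.60 (permutation p = 0.0337, adjusted p = 0.224) and rho = -0.53. That r was -0.93 within the control group (exact permutation p = 0.00595) and -0.10 within the fructose group. It was -0.57 without the narrow pair and -0.38 without its 2 farthest arrays, control replicate 5 and fructose replicate 7. The 15 measured choroid plexus and ependyma markers had a median signal of 6.96, against 6.78 for the genes typical of other organs. How far most of them stood above background is therefore unknown, also for the relation of Slc2a4 to them. Their mean had r = -0.64 with the interquartile range.

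Slc2a5, known from microglia, had a like r with markers of 3 cell types. Its r was 0.75 with astrocyte markers (permutation p = 0.00399, adjusted p = 0.0598), 0.74 with microglia markers (permutation p = 0.00643, adjusted p = 0.0643) and 0.72 with neuron markers (permutation p = 0.0058, adjusted p = 0.0643), with rho of 0.59, 0.53 and 0.62. A larger r with these lists was found for 4.99%, 3.81% and 2.33% of the other probe sets. Within the control group the r of Slc2a5 with them were 0.87, 0.77 and 0.85, and within the fructose group -0.52, 0.10 and 0.57. In the fructose arrays the SD was 0.049 for the astrocyte, 0.012 for the microglia and 0.042 for the neuron mean. In control arrays it was 0.17, 0.14 and 0.064. The SD of Slc2a5 was 0.05 in fructose against 0.17 in control arrays. With so little spread, the 6 fructose arrays cannot show whether these 3 relations held there. The r of Slc2a5 was larger still with the interquartile range, at r = 0.80 (permutation p = 0.00079, adjusted p = 0.0474) and rho = 0.72 (adjusted p = 0.133), the only one of the 60 relations that passed. A larger r with that range was found for 3.59% of all probe sets. The relation of Slc2a5 to it was 0.91 within the control group (exact permutation p = 0.00238) and -0.10 within the fructose group (exact permutation p = 0.782). Without control replicates 1 and 2, which were also the 2 arrays farthest from its median, it was 0.53 (permutation p = 0.0945), so it rests on them. Without them r was 0.50 with astrocyte, 0.46 with microglia and 0.50 with neuron markers, each with a permutation p above the threshold. The astrocyte, microglia and neuron lists had r = 0.85, r = 0.76 and r = 0.68 with the interquartile range.

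Slc2a4 had an inverse relation to the interquartile range that missed the adjusted threshold, with r = -0.76 (permutation p = 0.00317, adjusted p = 0.0598) and rho = -0.76. It was -0.74 within the control group (exact permutation p = 0.0609), -0.96 within the fructose group (exact permutation p = 0.00278) and -0.67 without the narrow pair (permutation p = 0.0240). A smaller r with the interquartile range was found for 6.92% of all probe sets. Among marker lists its strongest was that of choroid plexus and ependyma, at r = 0.61 (permutation p = 0.0262, adjusted p = 0.196) and rho = 0.62. This r fell to 0.40 without its 2 farthest arrays, control replicate 5 and fructose replicate 7. It was 0.44 without control replicate 5 alone and 0.61 without fructose replicate 7 alone. Without control replicate 7 it was 0.80 (permutation p = 0.00159, adjusted p = 0.0318). That list had r = -0.64 with the interquartile range. By Pearson's r, Slc2a8 and Slc2a2 had no relation with an unadjusted p under 0.05. Their strongest r were to endothelial markers (r = 0.49, permutation p = 0.0876, adjusted p = 0.386) and to microglia markers (r = -0.47, permutation p = 0.106, adjusted p = 0.386). The last turned sign after renewed quantile normalization or cyclic loess. After the same steps the r of Slc2a8 with endothelial markers was 0.13 and 0.10, and that of Slc2a4 with choroid plexus and ependyma markers was 0.33 and 0.36. Without the narrow pair the former was 0.28. By rho, the strongest relation of Slc2a8 was to microglia markers, at 0.58 (permutation p = 0.0425, adjusted p = 0.319). Its r with them was 0.46 (permutation p = 0.112) and 0.027 without the narrow pair. Without the 2 arrays farthest from the median of that list, control replicates 1 and 8, r was 0.82 (permutation p = 0.00351). That subset keeps the narrow control replicate 2, which had its lowest list mean, -0.17, and its lowest Slc2a8 signal, 9.001. The next lowest list mean was -0.025, in fructose replicate 2.

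Among the 15 pairs of transporters 1 had an unadjusted p under 0.05, and none passed after adjustment over the pairs. That pair was Slc2a5 and Slc2a8, with r = 0.59 (permutation p = 0.0370, adjusted p = 0.361) and rho = 0.38, and r was 0.11 without control replicates 1 and 2. The glucose carriers of barrier and neurons, Slc2a1 and Slc2a3, had r = -0.43 (permutation p = 0.146, adjusted p = 0.361) and rho = -0.46, and r was -0.14 within the control group, -0.87 within the fructose group and -0.70 without control replicates 1 and 2. Within the fructose group r was also -0.92 for Slc2a2 and Slc2a5 and 0.87 for Slc2a1 and Slc2a8. The r of pairs within a group were not tested.

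The genes whose signals over the 13 arrays were most like those of each transporter were taken from all probe sets with 1 gene, by Pearson r. They are picked as the extremes of all these genes, so no test applies. For Slc2a1 they were Pnpla2 (0.92), a triglyceride lipase, Acer2 (0.91), an alkaline ceramidase, Selenow (0.89), a selenoprotein, Nudt3 (0.88) and Dnajb2 (0.88), a cochaperone. For Slc2a3 they were Trpv2 (0.90), a cation channel, Ldha (0.90), which encodes a lactate dehydrogenase subunit, Bbs5 (0.90), Tpm3 (0.89), a tropomyosin, and Atp11b (0.87). The r of Slc2a3 with Ldha was 0.98 without control replicates 1 and 2, 0.86 within the control and 0.98 within the fructose group, and Ldha had r = 0.21 with the interquartile range. For the other genes named for Slc2a3 these r were 0.87 to 0.93, 0.89 to 0.96 and 0.81 to 0.94. The genes were picked on the same arrays, so these subsets are no separate check.

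For Slc2a5 the nearest genes were Uqcrq (0.93), a subunit of respiratory complex III, Ctnnbl1 (0.91), Ficd (0.90), Hint2 (0.90) and Nck1 (0.90), and these 5 had r from 0.70 to 0.88 with the interquartile range. Within the fructose group the r of Uqcrq with Slc2a5 was 0.24. For Slc2a4 they were C5ar2 (0.94), Cfi (0.94), Cyp2f4 (0.94), Il36rn (0.94) and Barhl1 (0.93), with r from -0.86 to -0.68 with that range. Slc2a4 had r above 0.8 with 242 genes, Slc2a5 with 161, Slc2a3 with 48, Slc2a1 with 31, Slc2a8 with 14 and Slc2a2 with 8. Those nearest to Slc2a8 were Alms1 (0.88), Or51v8 (0.87), Lrrc47 (0.87), Coq6 (0.86) and Polr3c (0.86), and to Slc2a2 Or9g19 (0.84), Il3 (0.83), Map2k5 (0.81), Fosl2 (0.81) and Htr7 (0.81). Some of these genes were dim, with mean signals of 4.85 for Or51v8, 5.16 for Il3, 5.52 for Or9g19, 5.60 for Il36rn and 5.82 for Cfi. The dimmest of the others was Cyp2f4, at 6.86. Genes typical of other organs ran from 4.98 to 8.67, so the signal of the dim ones over background is unknown.

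**Figure D5:**
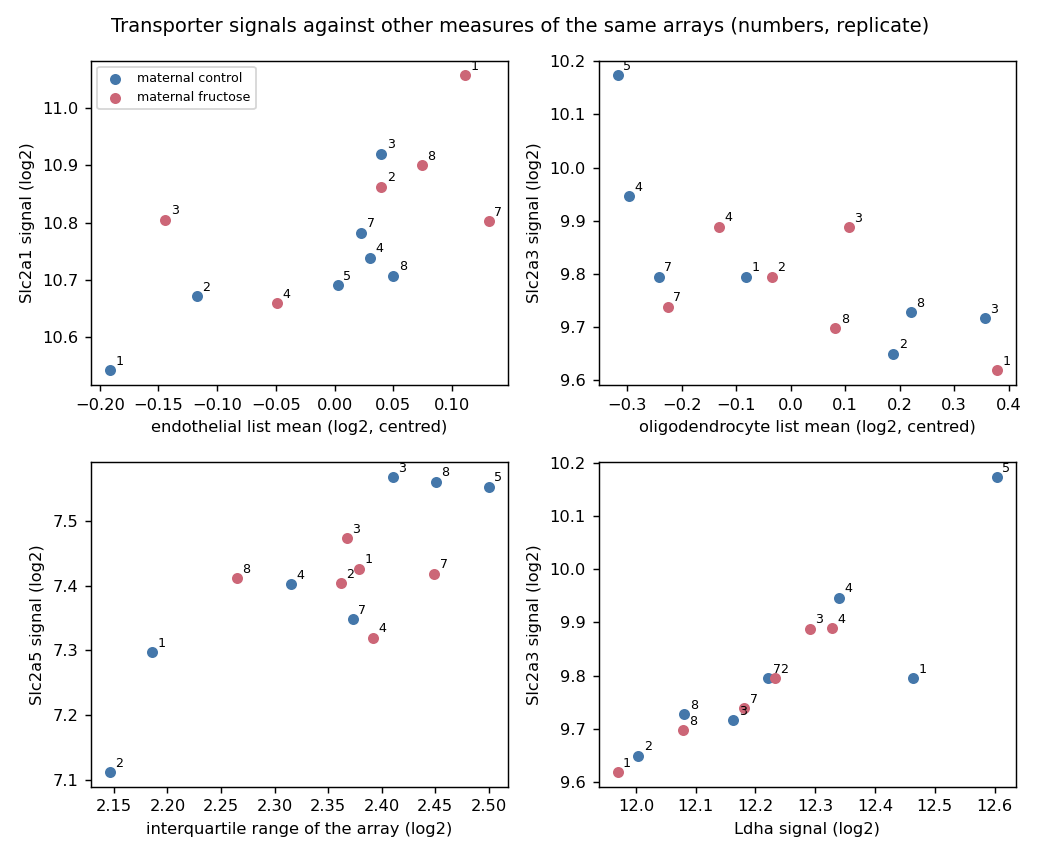
Signal (log2) of Slc2a1 against the endothelial list mean, of Slc2a3 against the oligodendrocyte list mean and against Ldha, and of Slc2a5 against the interquartile range of the array, 1 point an array in the colour of its maternal diet with its replicate number. Slc2a3 is lower where oligodendrocyte markers are higher (r = -0.71) and higher where Ldha is higher (r = 0.90, with control replicate 1 apart from the rest), and the lowest Slc2a5 values are those of control replicates 1 and 2, the narrowest arrays.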

How the data were processed

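Total RNA was isolated with Qiazol and RNeasy, and biotinylated cRNA was made from 100 ng. The table the authors deposited held log2 signals of 29214 probe sets on 13 arrays. The authors used RMA and R 3.0.1, per the submitters' processing notes; the annotation build is not given in the sources used here. GEO's platform annotation gave 15310 probe sets 1 gene and 323 several. All 15633 entered a fit in limma 3.58.1 (lmFit, eBayes; R 4.3.3), fructose minus control, without a filter, with Benjamini-Hochberg adjustment and 0.05 as the threshold. A list mean is the mean over genes of each gene's deviation from its mean over arrays, at its brightest probe set. Named genes were the members, the 5 genes most like each by r, and per pathway list the pair of genes with the smallest unadjusted p. The members and lists were chosen with earlier results of these data known. Alternatives covered normalization, dim probe sets, array weights, the variance prior, the replicate block and left-out arrays. The scripts were tested on simulated data. The number of arrays limits the precision.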

Additional observations from a re-analysis of the deposited data

Results flagged for a closer look

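In groups of 6 or 7 arrays, 3 of the 46 groups of values checked held an array far from the others, where chance gives about 2.3. Slc2a4 was 6.95 in fructose replicate 8, above the next fructose array at 6.81. Gipc1 was 8.72 in control replicate 2, one of the narrow arrays, below the next control array at 8.86. The mean of the choroid plexus and ependyma markers was -0.23 in control replicate 5, below the next control array at 0.010, and this array also weighs on the relation of that list to Slc2a4.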

How the results depend on the processing

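In limma, 0 probe sets passed under each of the 21 alternatives for the diet comparison (15633 tested, 10943 without the 30% dimmest), with 225 (without the 30% dimmest probe sets) to 759 (array weights) at an unadjusted p under 0.05, against 348, 310 with the replicate block, 717 without control replicates 1 and 2, and 248 to 527 with 1 array left out. The differences of Slc2a1, Slc2a2 and Slc2a3 and of the 8 named pathway genes kept their sign in each fit, and no adjusted p passed. Filtering out the 30% dimmest removed Slc2a2 and Slc2a4, so they have no value there. The difference of Slc2a5 (0.0031) was -0.0045 with array weights, -0.077 without control replicates 1 and 2, and -0.046 to 0.030 with 1 array left out. That of Slc2a4 (0.0051) was -0.030 to 0.042 with 1 array left out, and that of Slc2a8 (-0.0011) -0.023 to 0.014. Same-numbered arrays did not deviate together (r from -0.34 to 0.19, above 0.1 in 1 of 6 pairs), so the numbers were not treated as pairs, and the labels do not say what they mark. With the replicate block Slc2a4 was -0.027 and Slc2a8 0.0086, and no call changed. These differences were the same without control replicate 5, which has no same-numbered fructose array. The relation of Slc2a2 to microglia markers (-0.47) was 0.069 after cyclic loess and 0.063 after quantile normalization. Of the 54 relations to marker lists, 0 to 2 passed with 1 array left out (2 without control replicate 7 or fructose replicate 3) and 2 with deviations from the group means, against 0. The causes were not tested. Signal over background is unknown, which limits Slc2a2, Slc2a4 and Slc2a5 most.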
